A study of Mus musculus with 8 samples.

Results

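The genes described here encode leukemia inhibitory factor (LIF), the receptor chains that bind it or its relative oncostatin M, the kinases and the transcription factor that carry the signal, and 3 genes that textbooks list as direct outputs of that factor. They were taken by symbol from the gene expression table: Lif, Lifr, Il6st, Osmr, Jak1, Jak2, Stat3, Socs3, Pim1, and Gbx2. All 10 were found among the 24354 genes listed, and all 10 were among the 13239 genes with a mean level of at least 1 in at least 1 group, which the tests covered. Levels are FPKM, fragments per kilobase of transcript and per 1000000 mapped fragments, so they can be compared between genes. Between libraries they rest on a scaling that is not stated, and their sum was lower in NSCs than in the other libraries.

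RNA sequencing covered 8 libraries in 4 groups of 2, all from undifferentiated mouse cells. Embryonic stem cells (ESCs) were the E14 line, titled wild type, and were grown with serum and LIF on inactivated fibroblasts of C3H mouse embryos. Neural stem cells (NSCs) came from OG2+/-/ROSA26+/- mice, whose OG2 allele is a GFP reporter of Oct4 that uses its distal enhancer and whose ROSA26 allele is a broadly active lacZ, and were grown on gelatin with EGF and FGF2, without feeder cells and with no LIF named for their medium. Extended pluripotent stem cells (EPSCs) were also titled wild type, were derived from C57BL/6 embryos at the eight-cell stage, and were kept in N2B27 medium with minocycline hydrochloride, dimethindene maleate, the GSK3 inhibitor CHIR99021, and human LIF, on the same kind of fibroblasts. EPSC-NSC hybrid cells were made by joining EPSCs and NSCs with polyethylene glycol, were selected by Oct4-GFP, are labelled tetraploid, and were kept in the EPSC medium on fibroblasts. By their labels, both libraries of a group came from a single line, so p-values measure the spread between these libraries, which may be technical. Between EPSCs and ESCs, the line, the strain, and the medium cannot be told apart. Hybrid cells and EPSCs shared their medium and feeders.

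LIF binds the LIF receptor, which pairs with gp130, the shared signalling chain of the interleukin 6 family that Il6st encodes. Kinases of the JAK family bound to the 2 chains then phosphorylate STAT3, which enters the nucleus and switches on its targets. Among these is Socs3, whose product binds gp130 and the JAK kinases and shuts the signal down again. In mouse ESCs, LIF acting through STAT3 keeps cells self-renewing, and Klf4, Tfcp2l1, Gbx2, and Pim1 are known as outputs that serve this. In neural stem cells, the same pathway is known for turning on astrocyte genes such as Gfap.

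Markers of pluripotent cells and of NSCs set the NSC libraries apart from the others, as their labels say. Summed over 7 pluripotency markers, FPKM lay between 4589 and 5547 in ESCs, EPSCs, and hybrid cells and between 0.519 and 0.550 in NSCs, where 5 of the 7 were at 0. Pou5f1, the gene of OCT4, was at 741.6 to 1106 FPKM in the pluripotent libraries and listed at 0 in NSCs, and Nanog was at 307.5 to 351.8 FPKM against at most 0.296. Summed over 7 NSC markers, it lay between 3692 and 3738 in NSCs and between 10.8 and 19.4 in the other libraries. Nestin, Nes, was at 114.0 and 119.6 FPKM in NSCs and at most 4.63 elsewhere, and Fabp7 at 2798 and 2709 FPKM against at most 0.238. Markers of feeder fibroblasts, however, differed between the groups grown on feeders. Summed over 16 such genes, FPKM was 161.6 and 165.2 in ESCs, 274 and 271 in EPSCs, 593 and 472 in hybrid cells, and 72.6 and 66.9 in NSCs. Among the 16 is Postn, which the paper names as an EPSC-specific gene. Which cells held the RNA of these markers was not tested. At least 1 FPKM was reached by 7 of the 16 in each ESC and NSC library, by 15 in each EPSC library, and by 16 in each hybrid cell library. Thy1 was at 4.402 and 5.01 FPKM in ESCs, 0.752 and 0.931 in NSCs, 13.01 and 10.95 in EPSCs, and 42.5 and 24.5 in hybrid cells. Col1a2, Lum, and Twist2 were listed at 0 in both NSC libraries, and Fn1 alone gave a mean of 141.1 FPKM of the sum in ESCs and 24.9 FPKM in NSCs. Of the 16, 15 were called higher in EPSCs than in ESCs, beside 33.7% of all tested genes. In hybrid cells against EPSCs, 15 were called higher, beside 22.5% of all tested genes. The depth, derived from the steps between low FPKM values with an assumed fragment length of 200 nucleotides, was 21.95 to 32.45 fragments per library in units of 1000000. At that depth, 3 fragments on a transcript of 2 kb give 0.0462 to 0.0683 FPKM, and all 10 members lay above this in every library.

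The pathway was expressed in every group, but its parts were arranged differently. Stat3 and Jak2 were highest in NSCs, Socs3 was highest in EPSCs and hybrid cells, and Pim1, Gbx2, and Lif were lowest in NSCs. Against ESCs, EPSCs had higher Lif, Il6st, Osmr, Stat3, and Socs3. Compared with EPSCs, hybrid cells had more Osmr and Stat3 and less Lifr, Il6st, and Socs3. Some of these calls were lost under alternative settings, as given below for each gene. They were those of Lif and Il6st in EPSCs against ESCs, and of Stat3, Lifr, Il6st, and Socs3 in hybrid cells against EPSCs.

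**Figure D1:**
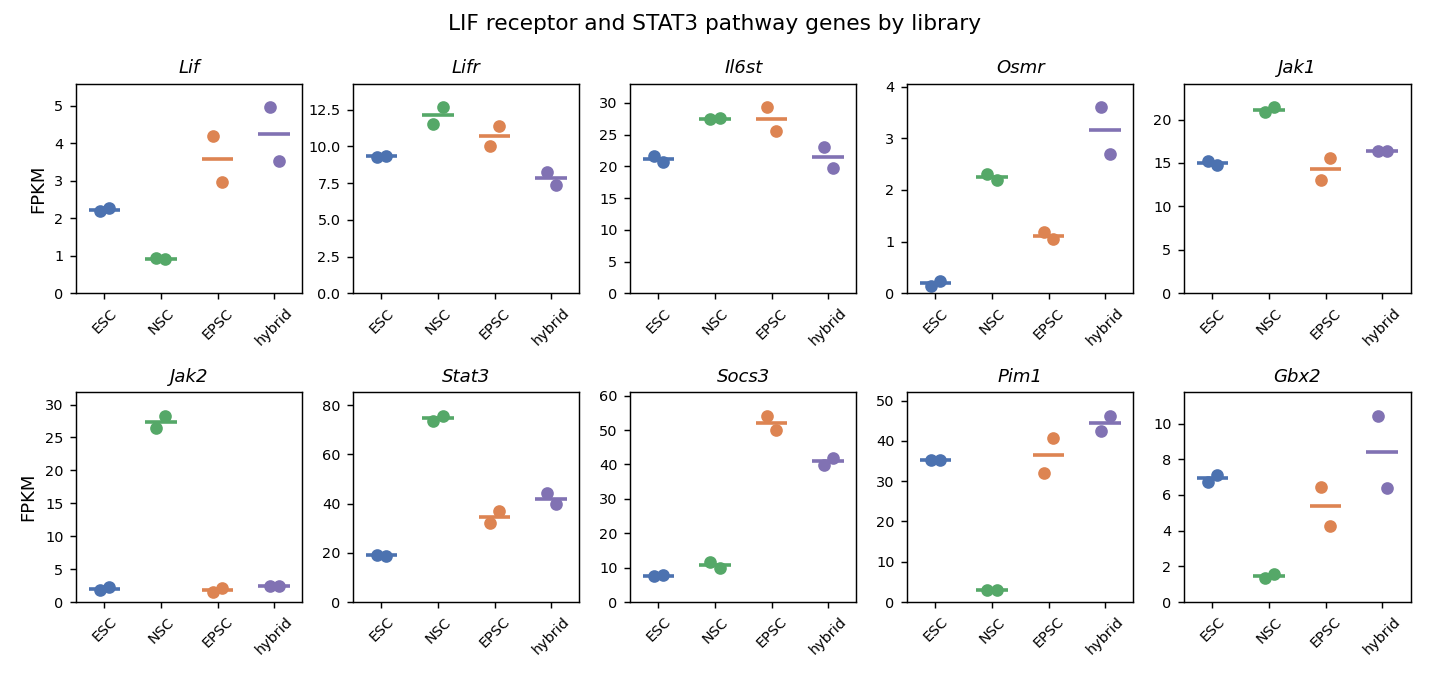
FPKM of each member (vertical axes, linear, starting at 0 and scaled for each gene) in the 4 groups, where points are libraries (n = 2 for each group) and bars are group means. Jak2 and Stat3 stood highest in NSCs, Socs3 at 39.97 to 54.2 FPKM in EPSCs and hybrid cells against at most 11.5 in the other libraries, and Pim1 at 2.89 and 3.09 FPKM in NSCs.

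In limma, fitted to log2(FPKM + 1) of all tested genes with Benjamini-Hochberg adjustment, 5 members were called higher in EPSCs than in ESCs at an adjusted p under 0.05 and the other 5 were not called. The background is high: 61.0% of all tested genes were called in this comparison, 33.7% as higher and 27.3% as lower in EPSCs. Without ESC replicate 2 or EPSC replicate 1, 3 members were called here (Osmr, Stat3, and Socs3). Between hybrid cells and EPSCs, 2 members were called higher and 3 lower in hybrid cells, beside 44.4% of all tested genes called, 22.5% as higher and 21.9% as lower. This count of 5 was 3 without EPSC replicate 1, 8 without EPSC replicate 2, and 2 in the fit of both groups alone. Between hybrid cells and NSCs, 5 were called higher and 5 lower in hybrid cells, beside 86.5% of all tested genes, 44.5% as higher and 42.0% as lower. With all libraries, the share of members called was near that of all genes in EPSCs against ESCs and in hybrid cells against EPSCs, and all 10 were called in hybrid cells against NSCs.

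The remaining pairs of groups were compared in the same way. Between EPSCs and NSCs, 4 members were called higher and 4 lower in EPSCs, with 86.2% of all tested genes called, 45.2% as higher and 41.0% as lower. Between ESCs and NSCs, 3 were called higher and 7 lower in ESCs, with 84.7% of all genes called, 42.8% as higher and 41.9% as lower. Between hybrid cells and ESCs, 5 were called higher in hybrid cells and the other 5 were not called, with 65.5% of all genes called, 35.3% as higher and 30.2% as lower. These comparisons share libraries and are not independent of each other.

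The methods of the study also give a rule with no test, an average level over 3 FPKM and a fold change over 3. Its results section instead names thresholds of 2 for both, which were used here as an alternative. The rule of the methods was read here as the larger of 2 group means over 3 FPKM and over 3 times the smaller. Read so, Socs3 alone differed between EPSCs and ESCs (4.72% of all tested genes did), and 0 members differed between hybrid cells and EPSCs (1.59% of all). Between hybrid cells and NSCs, 5 members passed (Lif, Jak2, Socs3, Pim1, and Gbx2), with 29.0% of all genes. The same 5 passed between EPSCs and NSCs, with 28.8%. After scaling to a common sum, Lif and Socs3 no longer passed between hybrid cells and NSCs. Without EPSC replicate 1, fewer members passed between EPSCs and NSCs. Between ESCs and NSCs, 4 passed (Jak2, Stat3, Pim1, and Gbx2), with 27.6% of all genes. Osmr and Socs3 passed between hybrid cells and ESCs, with 6.68% of all genes. If the average is taken over both groups, Lif drops out against NSCs in hybrid cells and EPSCs, and Osmr between hybrid cells and ESCs.

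Lif (chromosome 11, 4257568 to 4272514, GRCm38), the gene of the ligand itself, was transcribed in all cells and least in NSCs. Its level was 2.19 and 2.28 FPKM in ESCs, 0.936 and 0.913 in NSCs, 4.21 and 2.98 in EPSCs, and 4.97 and 3.52 in hybrid cells. The libraries of EPSCs and hybrid cells overlapped, and those of the other groups did not. Against NSCs, hybrid cells had 4.60-fold more (log2 fold change on the log2(FPKM + 1) scale 1.43 ± 0.16 SE, adjusted p = 7.2e-05, limma). EPSCs had 1.61-fold more than ESCs (0.49 ± 0.16, adjusted p = 0.0322), a call that was lost without the filter on low values (adjusted p = 0.0645) and without ESC replicate 1 (0.131), ESC replicate 2 (0.106), NSC replicate 1 (0.0675), NSC replicate 2 (0.0674), or EPSC replicate 1 (0.167). Hybrid cells differed from EPSCs by 0.19 ± 0.16 (adjusted p = 0.373). The order of the 4 groups by Lif was that of their summed feeder markers, and the part of feeder cells in this was not tested. In such bulk libraries, more cells of a type and more RNA per cell cannot be told apart.

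Lifr (chromosome 15, 7090610 to 7197489), which encodes the specific LIF receptor chain, spanned 1.55-fold between its highest and lowest group. Its level was 9.30 and 9.37 FPKM in ESCs, 11.5 and 12.7 in NSCs, 10.03 and 11.4 in EPSCs, and 8.27 and 7.40 in hybrid cells. No 2 groups overlapped, and hybrid cells were lowest. They had less Lifr than EPSCs (−0.41 ± 0.09, adjusted p = 0.0101) and than NSCs (−0.57 ± 0.09, adjusted p = 0.000534). The fit of hybrid cells and EPSCs alone did not call the first of these (adjusted p = 0.0787). EPSCs and ESCs differed by 0.18 ± 0.09 (adjusted p = 0.126).

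Il6st (chromosome 13, 112464070 to 112506860), the gene of gp130, was the most abundant of the receptor genes in every library. Its level was 21.7 and 20.7 FPKM in ESCs, 27.5 and 27.6 in NSCs, 29.4 and 25.6 in EPSCs, and 23.1 and 19.7 in hybrid cells. EPSCs overlapped with NSCs, and hybrid cells with ESCs. Hybrid cells were lower than EPSCs (−0.35 ± 0.09, adjusted p = 0.0210) and NSCs (−0.35 ± 0.09, adjusted p = 0.00820). Without EPSC replicate 1 or hybrid replicate 2, or in the fit of both groups alone, the difference from EPSCs was not called (adjusted p = 0.102, 0.0809, and 0.107). The higher level of EPSCs against ESCs (0.36 ± 0.09, adjusted p = 0.0128) was likewise not called without ESC replicate 2 (0.0819) or EPSC replicate 1 (0.0711).

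Osmr (chromosome 15, 6813568 to 6874968) encodes the chain that pairs with gp130 to bind oncostatin M, and it had the widest span of the receptor genes. Its level was 0.146 and 0.240 FPKM in ESCs, 2.32 and 2.202 in NSCs, 1.18 and 1.06 in EPSCs, and 3.61 and 2.699 in hybrid cells. No groups overlapped, and hybrid cells were above both EPSCs and NSCs. Hybrid cells had 2.82-fold more than EPSCs (0.96 ± 0.11, adjusted p = 0.000845) and 16.3-fold more than ESCs (1.79 ± 0.11, adjusted p = 1.5e-05). EPSCs had 5.79-fold more than ESCs (0.83 ± 0.11, adjusted p = 0.000618). The excess of hybrid cells over NSCs was 1.40-fold (0.34 ± 0.11, adjusted p = 0.0221) and turned to −0.13 (adjusted p = 0.377) when each library was scaled to a sum of 1000000. It was also not called with a pseudocount of 0.1 (0.0771), in the fit of both groups alone (0.0590), or without NSC replicate 1 (0.0624), NSC replicate 2 (0.0944), or hybrid replicate 1 (0.0983).

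Among the groups on feeders, Osmr followed the fibroblast markers. The mean of Osmr was 0.193, 1.118, and 3.15 FPKM in the order ESCs, EPSCs, hybrid cells. That of Col1a1, a collagen gene of fibroblasts, was 1.96, 14.7, and 53.6 FPKM. That of Postn, which is also an EPSC-specific gene in the paper, was 0.508, 11.02, and 36.1 FPKM. In NSCs, which had no feeders, Osmr was at 2.26 ± 0.0802 FPKM (SD, n = 2) with Col1a1 at 0.209 FPKM and Postn at 0.0118 FPKM. Of the 16 markers, 11 were called higher and 4 lower in EPSCs than in NSCs, beside 45.2% and 41.0% of all tested genes. Some were well above 0 in NSCs, such as Col6a1 at 16.4 FPKM, Prrx1 at 7.03, and Pdgfra at 3.02, beside 9.98, 1.94, and 1.24 in EPSCs. The part of feeder RNA in the level of Osmr was not tested.

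**Figure D2:**
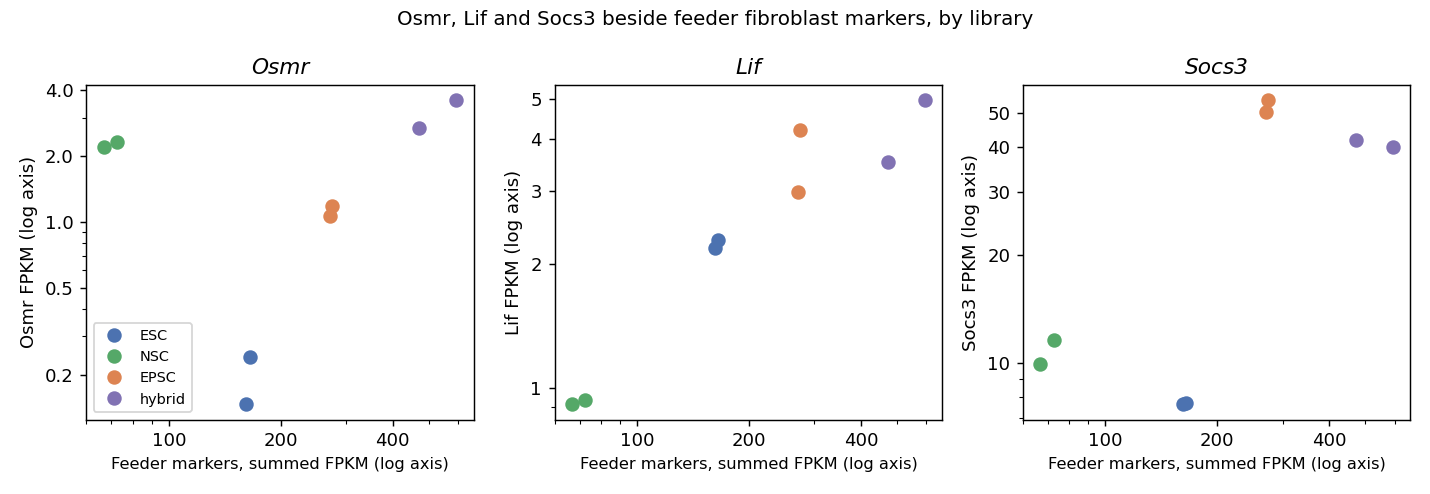
Osmr, Lif, and Socs3 in FPKM against the summed FPKM of 16 feeder fibroblast markers, with 1 point for each library and both axes logarithmic. The group means of Osmr and Lif were higher with more feeder marker RNA among ESCs, EPSCs, and hybrid cells. NSCs had Osmr at 2.202 and 2.32 FPKM with the lowest marker sums. Socs3 and the marker sum were both higher in EPSCs than in ESCs. In hybrid cells, Socs3 was lower than in EPSCs and the marker sum was higher. The part of feeder RNA in these levels was not tested.

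As a share of the 3 receptor genes together, which does not depend on how libraries were scaled, Osmr made up 0.63 ± 0.23% in ESCs and 9.69 ± 0.89% in hybrid cells (SD, n = 2). It made up 2.84 ± 0.08% in EPSCs and 5.40 ± 0.29% in NSCs. Lifr made up 30.4 ± 0.75%, 24.2 ± 0.85%, 27.4 ± 3.7%, and 28.9 ± 1.4% in the same order. The share of Il6st stayed between 64.9% and 72.4% in all libraries. There were accordingly 51.4 ± 17.3 Lifr transcripts per length for each of Osmr in ESCs, 9.64 ± 1.6 in EPSCs, 5.37 ± 0.55 in NSCs, and 2.52 ± 0.32 in hybrid cells.

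Jak1 (chromosome 4, 101151974 to 101265282), the main kinase bound to gp130, differed little between groups. Its level was 15.2 and 14.7 FPKM in ESCs, 20.8 and 21.5 in NSCs, 13.1 and 15.6 in EPSCs, and 16.39 and 16.43 in hybrid cells. NSCs stood above all others, and EPSCs overlapped with ESCs. Hybrid cells were below NSCs by 1.29-fold (−0.35 ± 0.08, adjusted p = 0.00532) and differed from EPSCs by 0.19 ± 0.08 (adjusted p = 0.106). This difference was called without EPSC replicate 2 (adjusted p = 0.0169).

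Jak2 (chromosome 19, 29251803 to 29313095), a kinase that also binds gp130 and serves many other cytokine receptors, separated NSCs from the pluripotent cells. Its level was 26.4 and 28.3 FPKM in NSCs, 1.76 and 2.24 in ESCs, 1.58 and 2.18 in EPSCs, and 2.42 and 2.43 in hybrid cells. NSCs stood far above every other library. Hybrid cells had 11.3-fold less than NSCs (−3.05 ± 0.13, adjusted p = 2.3e-07), EPSCs 14.6-fold less (−3.31 ± 0.13, adjusted p = 1.5e-07), and ESCs 13.7-fold less (−3.24 ± 0.13, adjusted p = 1.6e-07). The difference between hybrid cells and EPSCs was 0.26 ± 0.13 (adjusted p = 0.134), and it was called without EPSC replicate 2 (0.0392).

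The JAK family was therefore made up differently in NSCs. Jak2 took 49.1 ± 1.3% of the FPKM of the 4 JAK genes in NSCs and 4.5 ± 0.81%, 4.8 ± 0.72%, and 4.9 ± 0.30% in ESCs, EPSCs, and hybrid cells (SD, n = 2). Jak3, a kinase best known from lymphocytes, took 3.45 ± 0.20% in NSCs and 39.0 ± 0.30%, 42.0 ± 3.3%, and 38.3 ± 2.7% in the other groups. Jak1 kept a share between 31.4% and 38.0% in all libraries. Hybrid cells thus had the shares of their pluripotent parent for Jak2 and Jak3. Tyk2, the fourth kinase, took 24.0 ± 0.31% in hybrid cells and 16.7 ± 0.79% in EPSCs, while ESCs had 22.8 ± 0.04%.

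Stat3 (chromosome 11, 100886806 to 100939594), the gene of the transcription factor that LIF activates, was higher in each group in the order ESCs, EPSCs, hybrid cells, NSCs. The first 3 of these stand in the order of their summed feeder markers, whose part in the level of Stat3 was not tested. Its level was 19.0 and 18.9 FPKM in ESCs, 32.2 and 37.2 in EPSCs, 44.2 and 39.7 in hybrid cells, and 73.6 and 75.7 in NSCs. No groups overlapped. EPSCs had 1.83-fold more than ESCs (0.84 ± 0.08, adjusted p = 0.000128), hybrid cells had 1.78-fold less than NSCs (−0.82 ± 0.08, adjusted p = 3.2e-05), and ESCs had 3.95-fold less than NSCs (−1.93 ± 0.08, adjusted p = 2.6e-07). Hybrid cells had 1.21-fold more than EPSCs (0.27 ± 0.08, adjusted p = 0.0318). This was not called without ESC replicate 1 or 2 (adjusted p = 0.0647 and 0.0646), NSC replicate 1 or 2 (0.0627 and 0.0629), EPSC replicate 1 (0.145), or hybrid replicate 1 (0.127), nor without the filter on low values (0.0522), in the fit of both groups alone (0.131), or when libraries were scaled to a common sum (0.0568).

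Among the 7 STAT genes, Stat3 took 35.7 ± 0.41% of the FPKM in ESCs, 64.8 ± 1.8% in EPSCs, 60.2 ± 0.25% in hybrid cells, and 76.7 ± 0.19% in NSCs. No groups overlapped in this share, and EPSCs and hybrid cells lay between ESCs and NSCs.

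**Figure D3:**
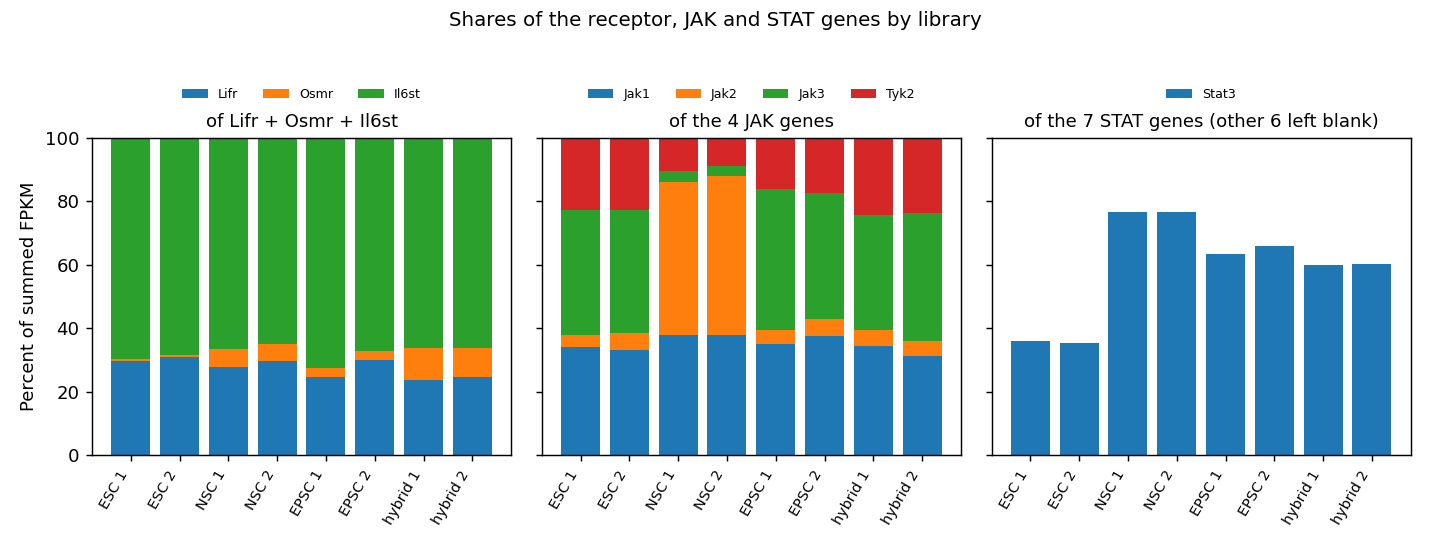
Share of each gene in the summed FPKM of the receptor genes and of the 4 JAK genes, and share of Stat3 in that of the 7 STAT genes, in percent (vertical axis), with 1 bar for each library. The NSC libraries stand apart by Jak2 at 48.16% and 50.04%, the ESC libraries by Stat3 at 35.9% and 35.4%, and the hybrid cell libraries by Osmr at 10.3% and 9.06%.

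Socs3 (chromosome 11, 117966079 to 117970336), the feedback inhibitor, had the largest log2 fold change of the members between EPSCs and ESCs. Its level was 7.65 and 7.74 FPKM in ESCs, 11.5 and 9.90 in NSCs, 54.2 and 50.1 in EPSCs, and 39.97 and 41.8 in hybrid cells. EPSCs and hybrid cells stood well above the other libraries, and no groups overlapped. These 2 groups also had higher summed feeder markers than ESCs and NSCs, and the part of feeder RNA in the level of Socs3 was not tested. EPSCs had 6.78-fold more than ESCs (2.61 ± 0.08, adjusted p = 1.4e-06), and hybrid cells had 5.31-fold more than ESCs (2.27 ± 0.08, adjusted p = 1.9e-06). Hybrid cells also had 3.81-fold more than NSCs (1.84 ± 0.08, adjusted p = 3.3e-07) and 1.28-fold less than EPSCs (−0.34 ± 0.08, adjusted p = 0.0130), the last of which was not called without EPSC replicate 1 (0.0656). In NSCs, Socs3 was 1.39-fold above ESCs (adjusted p = 0.00152), and quantile normalization ended this call (0.0942).

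Socs3 was also set against Stat3, its activator. The ratio of Socs3 to Stat3 FPKM was 0.404 and 0.410 in ESCs, 0.157 and 0.131 in NSCs, 1.68 and 1.35 in EPSCs, and 0.905 and 1.05 in hybrid cells. The groups did not overlap: NSCs, with the most Stat3, had the least Socs3 for it. This ratio was not tested.

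The promoter sequences were searched for letters that STAT factors are known to read. In RefSeq windows of GRCm38.p6 covering the 250 bases before each annotated start, 12 windows were found for the 10 members. The motif TTCNNNGAA, which reads the same on both strands, occurred in 1 of the 12, that of Socs3, beside 7.02% of all 32851 windows and 5.76% of those of tested genes, so this count is near the background. The narrower TTCCNGGAA, whose matches are all matches of the first as well, occurred in 0.913% of all windows and in none of the 12. The match in Socs3 lies from 154 to 146 bases before the start. The absence of these letters elsewhere says only that these windows do not hold them. The sequences of Socs3, of Pim1 as a second target without a match, and of Jak2 as the member that separated NSCs are given 5′ to 3′ with the match in capitals. The stretches of Socs3 and Pim1 stop where the first exon that GENCODE M21 annotates within the window begins, and the window of Jak2, which holds no such exon, is whole. The Socs3 stretch lies inside the span of that gene, between exons of a longer transcript.
Socs3, chr11:117969452-117969616, minus strand: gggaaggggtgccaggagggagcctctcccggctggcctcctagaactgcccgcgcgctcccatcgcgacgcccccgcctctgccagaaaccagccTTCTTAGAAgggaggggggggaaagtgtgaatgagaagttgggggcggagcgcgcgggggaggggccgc
Pim1, chr17:29490535-29490752, plus strand: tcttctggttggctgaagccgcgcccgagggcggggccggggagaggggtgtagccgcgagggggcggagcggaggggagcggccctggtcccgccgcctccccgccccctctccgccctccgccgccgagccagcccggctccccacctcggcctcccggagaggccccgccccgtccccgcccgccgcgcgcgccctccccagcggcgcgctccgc
Jak2, chr19:29251553-29251802, plus strand: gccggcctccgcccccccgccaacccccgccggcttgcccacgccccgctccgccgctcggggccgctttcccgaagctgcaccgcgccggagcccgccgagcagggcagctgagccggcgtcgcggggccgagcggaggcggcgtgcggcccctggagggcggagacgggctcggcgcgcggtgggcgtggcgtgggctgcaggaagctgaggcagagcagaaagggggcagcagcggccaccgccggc
The share of G and C over the 250 bases was 71.6% for Socs3, 82.4% for Pim1, and 80.8% for Jak2, against a median of 52.4% over all windows, whose upper quartile was 61.2%. A second window of Pim1, at a later start and not printed, had 48.0%.

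Pim1 (chromosome 17, 29490785 to 29496111), which encodes a serine/threonine kinase that favours survival, was a gene of the pluripotent cells. Its level was 35.17 and 35.26 FPKM in ESCs, 3.09 and 2.89 in NSCs, 32.1 and 40.8 in EPSCs, and 42.5 and 46.3 in hybrid cells. NSCs were far below, and ESCs lay between the EPSC libraries. Hybrid cells had 14.9-fold more than NSCs (3.51 ± 0.11, adjusted p = 5.6e-08). EPSCs and ESCs differed by 0.04 ± 0.11 (adjusted p = 0.779) although Socs3 differed 6.78-fold between the same libraries. The excess of hybrid cells over EPSCs was 0.29 ± 0.11 (adjusted p = 0.0682) and was called without EPSC replicate 2 (0.00769). Against ESCs it was 0.33 ± 0.11 (adjusted p = 0.0316), a call that was lost without ESC replicate 1 (0.120), ESC replicate 2 (0.116), either NSC library (0.0585), or hybrid replicate 2 (0.128), without the filter on low values (0.0539), after scaling to a common sum (0.114), and after quantile normalization (0.0682).

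Gbx2 (chromosome 1, 89927962 to 89931176), a homeobox gene that sustains ESCs downstream of STAT3, was low in all cells and lowest in NSCs. Its level was 6.74 and 7.11 FPKM in ESCs, 1.33 and 1.59 in NSCs, 6.45 and 4.28 in EPSCs, and 10.4 and 6.38 in hybrid cells. The 2 hybrid cell libraries were further apart than those of any other group for this gene, and they overlapped with ESCs and EPSCs. Hybrid cells had 5.77-fold more than NSCs (1.90 ± 0.23, adjusted p = 9.8e-05). They differed from EPSCs by 0.55 ± 0.23 (adjusted p = 0.0865), which was called without EPSC replicate 1 (0.0451) or without hybrid replicate 2 (0.0163). EPSCs and ESCs differed by −0.34 ± 0.23 (adjusted p = 0.232).

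**Figure D4:**
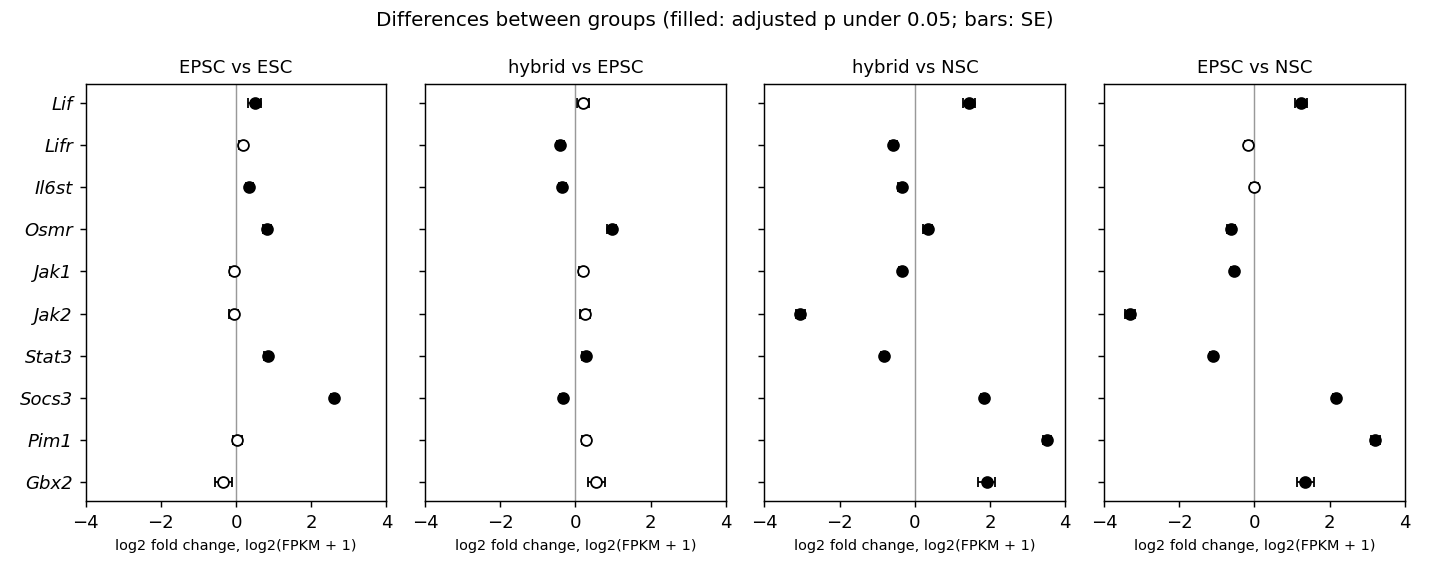
Log2 fold change of each member on the log2(FPKM + 1) scale (horizontal axes) in 4 comparisons, with bars for the SE of limma and filled points for an adjusted p under 0.05. Socs3 stood at 2.61 in EPSCs against ESCs, all values of hybrid cells against EPSCs lay between −0.41 and 0.96, and against NSCs hybrid cells stood at −3.05 for Jak2 and 3.51 for Pim1.

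Since hybrid cells were made from cells of both types, each member was set against the mean of EPSCs and NSCs on the log2(FPKM + 1) scale. In this comparison, 5 members were called higher (Lif, Osmr, Socs3, Pim1, and Gbx2) and 4 lower (Lifr, Il6st, Jak2, and Stat3), beside 77.2% of all tested genes called, 38.7% as higher and 38.5% as lower. Pim1 lay 1.90 ± 0.09 above the mean (adjusted p = 1.8e-06) and Jak2 lay 1.40 ± 0.11 below it (−1.40, adjusted p = 1.5e-05). Jak1 differed from it by −0.08 ± 0.07 (adjusted p = 0.351), but by −0.39 (adjusted p = 0.00439) after scaling to a common sum, and it was also called without EPSC replicate 1 (0.0498). Stat3 was 0.28 below (−0.28 ± 0.07, adjusted p = 0.00808), which was not called without hybrid replicate 2 (0.0610).

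For the 6 members whose parents differed by at least 1 on that scale, the position of hybrid cells was computed with NSCs at 0 and EPSCs at 1. It was 0.922 for Jak2, 0.753 ± 0.10 for Stat3, 0.843 ± 0.02 for Socs3, 1.09 ± 0.03 for Pim1, 1.15 ± 0.23 for Lif, and 1.41 ± 0.33 for Gbx2 (SD over the 2 hybrid cell libraries). All 6 were nearer to EPSCs than to NSCs. Stat3 was the furthest toward NSCs, except after scaling to a common sum, when Socs3 lay at 0.785 and Stat3 at 0.845, and Pim1, Lif, and Gbx2 lay beyond EPSCs. For Lif, the position was 0.993 without hybrid replicate 1 and 0.998 without EPSC replicate 2.

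The other genes of the pathway were read from fixed lists. Their counts stand beside 61.0% of all tested genes called for EPSCs against ESCs, 44.4% for hybrid cells against EPSCs, and 86.5% for hybrid cells against NSCs. Of 9 other ligands of the gp130 family, 6 were tested. Of these, 2 were called higher and 2 lower in EPSCs than in ESCs, and 0 were called by limma between hybrid cells and EPSCs, where 1 had an unadjusted p under 0.05 (the median over the 6 was −0.05, and over all tested genes 0). The gene of oncostatin M, Osm, was at 0.768 and 0.604 FPKM in ESCs, 3.27 and 3.68 in EPSCs, and 2.40 and 3.10 in hybrid cells, and it was listed at 0 in both NSC libraries. EPSCs had 5.07-fold more than ESCs (1.41 ± 0.11, adjusted p = 4.9e-05). The EPSC and hybrid cell libraries thus held transcripts of both this ligand and its receptor chain, of which those of ESCs held less. These are bulk libraries of cultures on feeders, and which cells held either transcript was not tested. Ebi3, a subunit of interleukin 27, was at 1.76 FPKM in ESCs and 0.257 in EPSCs. Against NSCs, hybrid cells had 5.42-fold more Ctf1, the gene of cardiotrophin (adjusted p = 0.000111).

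Of 4 other receptor genes, 3 were tested. Cntfr, the gene of the ciliary neurotrophic factor receptor chain, had its highest level in NSCs, at 15.87 and 15.997 FPKM. ESCs followed with 4.84 FPKM, ahead of EPSCs with 1.43 and hybrid cells with 1.40. Hybrid cells had 11.4-fold less than NSCs (−2.83 ± 0.14, adjusted p = 6.0e-07). Il6ra, the interleukin 6 receptor chain, was 3.39-fold higher in EPSCs than in ESCs and 2.24-fold higher in hybrid cells than in EPSCs (0.78 ± 0.13, adjusted p = 0.00280). Il11ra1, the interleukin 11 receptor chain, was lowest in EPSCs at 2.03 FPKM, and hybrid cells had 4.86 FPKM (0.95 ± 0.10, adjusted p = 0.000563), beside 3.93 in NSCs and 4.13 in ESCs. Its excess in hybrid cells over NSCs (0.25 ± 0.10, adjusted p = 0.0458) was lost under 10 of the 14 alternatives and turned in sign under 1. Along with Osmr, these 2 receptor genes were called higher in hybrid cells than in EPSCs, as were 15 of the 16 feeder markers and 22.5% of all tested genes. In EPSCs against ESCs, the summed feeder markers and Il6ra were higher and Il11ra1 was lower. The part of feeder RNA in these receptor genes was not tested.

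All 8 of the other JAK and STAT genes were tested. Against ESCs, EPSCs had 1 higher and 4 lower, with a median of −0.16 against 0.04 over all tested genes. Stat2, a mediator of interferon signals, was 1.65-fold lower in EPSCs. Against EPSCs, hybrid cells had 5 higher and the other 3 were not called, with a median of 0.44 against 0 over all tested genes, of which 44.4% were called and 22.5% as higher. In the same comparison 15 of the 16 feeder markers were called higher, and their part in these genes was not tested. Tyk2 was 1.82-fold higher (0.78 ± 0.10, adjusted p = 0.00117) in hybrid cells than in EPSCs. Stat4 was at 7.41 FPKM in hybrid cells, 4.25 in EPSCs, and 3.40 in ESCs, and it was listed at 0 in NSCs. Against NSCs, hybrid cells also had more Jak3, at 19.2 FPKM against 1.92 (2.79 ± 0.09, adjusted p = 8.4e-08), and Stat6, which serves interleukin 4, at 5.72 against 0.140 (2.56 ± 0.08, adjusted p = 5.0e-08).

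Of 16 inhibitors and phosphatases, all tested, 7 were called higher and 6 lower in EPSCs when compared to ESCs (61.0% of all tested genes were called), and their median was 0.10 against 0.04 over all tested genes. Usp18, an inhibitor of interferon signalling, was at 21.9 and 20.8 FPKM in ESCs and 0.839 and 0.611 in EPSCs, 29.4-fold lower (−3.70 ± 0.12, adjusted p = 1.5e-06). Ptpn1, a phosphatase that acts on JAK kinases, was 2.17-fold lower in EPSCs (adjusted p = 2.1e-05) and Socs4 was 2.27-fold higher (adjusted p = 0.000685). Between hybrid cells and EPSCs, 1 was called higher (Usp18, 3.18-fold) and 7 lower, with a median of −0.19 against 0 over all tested genes, of which 44.4% were called. Cish, another gene of the SOCS family and an output of STAT5, was at 1.91 FPKM in hybrid cells against 3.47 (−0.62 ± 0.09, adjusted p = 0.00205). Against NSCs, the largest difference on the log2(FPKM + 1) scale was that of Socs2, with 72.7 FPKM for hybrid cells and 1.47 for NSCs (4.90 ± 0.15, adjusted p = 5.9e-08). Ptpn6, the phosphatase SHP-1, was likewise higher in hybrid cells (11.7 against 0.138 FPKM, a larger ratio of means), and Socs5 was lower (3.13 against 12.2 FPKM).

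LIF also feeds the ERK and PI3K arms. Of 12 genes of these arms, all tested, 4 were called higher and 1 lower in EPSCs when compared to ESCs, and their median was 0.13 against 0.04 over all tested genes. In hybrid cells against EPSCs, 2 were called higher and 7 lower, with a median of −0.21 against 0. Of all tested genes, 61.0% and 44.4% were called in these comparisons. Sos1, an exchange factor that activates RAS, was 1.64-fold higher in EPSCs than in ESCs and 1.54-fold lower in hybrid cells than in EPSCs, and Gab1, the adaptor that recruits PI3K, fell from 76.8 to 57.1 FPKM between EPSCs and hybrid cells (−0.42 ± 0.05, adjusted p = 0.00110). Mapk3 was at 68.8 FPKM in ESCs and 45.6 in EPSCs. Pik3r1, a regulatory subunit of PI3K, was at 57.1 FPKM in NSCs and 3.91 in hybrid cells, and Shc1, an adaptor of the ERK arm, at 10.6 and 51.5 FPKM. Tbx3, a pluripotency factor placed downstream of PI3K, reached 47.1 FPKM in hybrid cells against 32.7 in EPSCs (0.52 ± 0.08, adjusted p = 0.00285) and was listed at 0 in NSCs.

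Of 19 other textbook targets of LIF or STAT3, 18 were tested, and 4 were called higher and 5 lower in EPSCs when set against ESCs. Their median was −0.02, and that of all tested genes 0.04. Klf4, a naive pluripotency factor, was at 53.0 FPKM in ESCs, 133.2 in EPSCs, 88.0 in hybrid cells, and 2.11 in NSCs. Fos, an immediate early gene, was 2.73-fold higher in EPSCs than in ESCs (adjusted p = 5.2e-05). Myc, which drives growth, was 3.40-fold lower in EPSCs (−1.63 ± 0.15, adjusted p = 0.000105), and Cebpb, a factor of inflammation and adipocyte formation, was 4.61-fold lower (−2.01 ± 0.17, adjusted p = 7.9e-05).

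Set against EPSCs, hybrid cells had 2 targets called higher and 3 lower, and 13 were not called, beside 44.4% of all tested genes called. Klf4 was 1.51-fold lower in hybrid cells (−0.60 ± 0.13, adjusted p = 0.00981), Myc was 1.60-fold higher (0.58 ± 0.15, adjusted p = 0.0177), and Smad7, an inhibitor of TGF-beta signals, was 1.49-fold higher. Myc was not called in the fit of both groups alone or without EPSC replicate 1 or 2 (adjusted p up to 0.0989). Against NSCs, 9 were called higher and 8 lower in hybrid cells, beside 86.5% of all tested genes called. Tfcp2l1, a self-renewal factor that STAT3 switches on, had 98.1 FPKM in hybrid cells against 0.0537 in NSCs, and Klf5 was at 95.4 and 0.870 FPKM. Gfap, chosen after its values were seen, was at 29.2 and 24.8 FPKM in NSCs and at most 0.120 FPKM in any other library. 

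**Figure D5:**
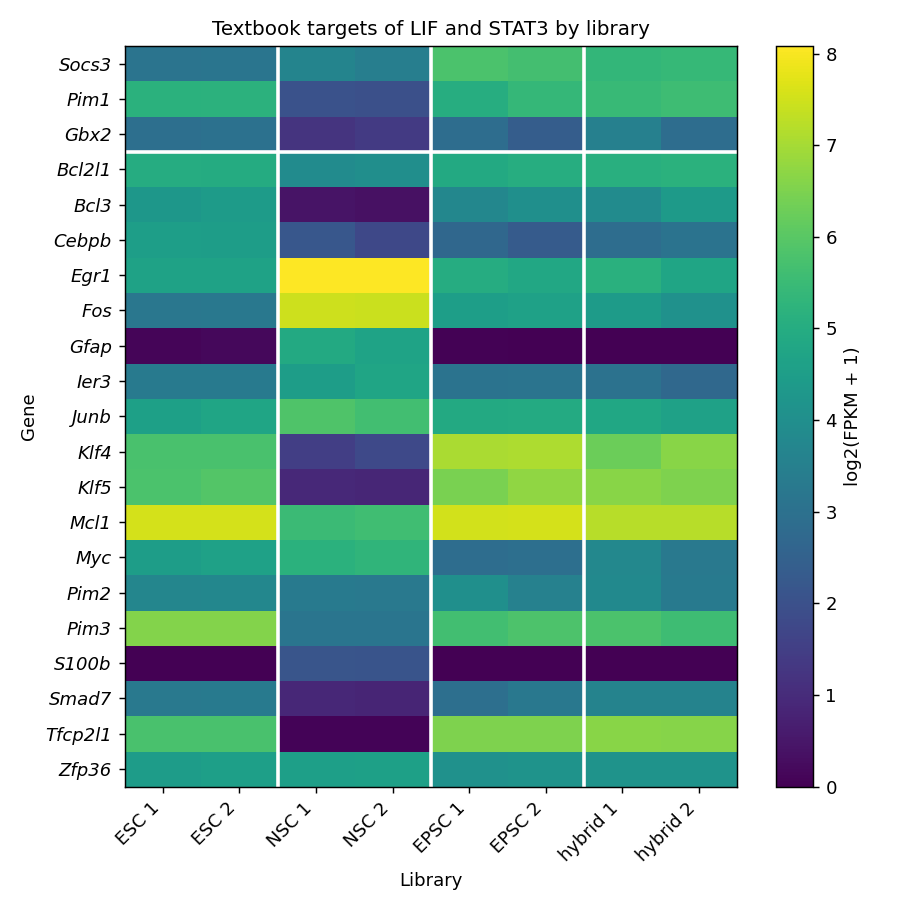
Level of the 3 member targets (above the white line) and the 18 other tested targets of LIF or STAT3 in each library, as log2(FPKM + 1) in colour, with libraries in columns. NSCs are dark for Klf4, Klf5, Tfcp2l1, and Bcl3 and bright for Egr1, Fos, and Gfap, and hybrid cells lie on the side of EPSCs in these rows.

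For 4 members, the genes with the most similar pattern were sought as those with the smallest root mean square difference in log2(FPKM + 1) over the 8 libraries, after each gene was centred on its own mean. Lifr was most like Ikzf5 (0.046), Tead1 (0.055), and Erc1 (0.057). Stat3 was most like Bcorl1 and Sgpl1 (0.086 each) and Lonrf3 (0.086). Socs3 had fewer near neighbours: Polr2k (0.117), then Rnaset2b (0.196) and 1700019A02Rik (0.256). Polr2k, a subunit shared by RNA polymerases, was at 92.4 and 85.1 FPKM in EPSCs and 16.6 and 14.4 in ESCs. Reads of Rnaset2b are uncertain because it has a nearly identical copy, Rnaset2a. Gbx2 was most like Utp14a (0.126), Cercam (0.132), and Dnah8 (0.143). These are likenesses over 4 groups of 2 libraries, with no test.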

How the data were processed

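RNA was sequenced in paired ends from TruSeq Stranded mRNA libraries. The authors trimmed reads with skewer, aligned them to mm10 with STAR (version 2.7.9a), and deposited FPKM values made by Cuffnorm of Cufflinks 2.2.1. The annotation, the strand setting, and the scaling of libraries are not given in the sources used here. FPKM summed to 600674 to 653796 in ESC, EPSC, and hybrid cell libraries and to 415240 and 415412 in NSC libraries. FPKM values are not counts, and depth (21.95 to 32.45 in units of 1000000 fragments) was only estimated. Between 77.4% and 86.3% of the low values used lay within 0.1 of a whole fragment, too few for a count test, so no interval for counting error is given. All table columns belonged to the 8 libraries.

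Groups followed the labels. Differences were tested with limma 3.58.1 (R 4.3.3, trended empirical Bayes) on log2(FPKM + 1), with the 4 groups in 1 model (4 residual and 3.25 prior degrees of freedom). It covered 13239 genes with a mean of at least 1 FPKM in at least 1 group, Benjamini-Hochberg adjustment ran over all of them, and an adjusted p under 0.05 was called. Fold changes on this scale understate those of low genes, and ratios in the text are of mean FPKM. In data simulated for EPSCs against ESCs, 94 of 100 genes changed by a log2 of 1 and 100 of 100 changed by 2 were recovered, and 8 unchanged genes were called. Python 3.11.15, pandas 2.3.3, and numpy 2.4.6 were used for summaries.

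The members and lists were chosen with earlier results of these data known. Of each list, up to 3 called genes were named for EPSCs against ESCs, for hybrid cells against EPSCs, and for hybrid cells against NSCs, taken by the size of the log2 fold change. Some of these are not reported here. Alternatives were a pseudocount of 0.1, no filter, libraries scaled to a sum of 1000000, quantile normalization, a fit of the compared groups alone, the replicate number as a block, leaving out each library, and thresholds of 2 in place of 3 for the rule of the study. A crossed block for ESCs and NSCs and the second reading of the rule were added after seeing the data.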

Additional observations from a re-analysis of the deposited data

How the results depend on the processing

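With 2 libraries a group and estimated depths of 21.95 to 32.45 in units of 1000000 fragments, differences as large as 0.55 ± 0.23 (Gbx2 in hybrid cells against EPSCs) were not called. On a transcript of 2 kb, 0.0683 FPKM is about 3 fragments in the library of least depth, and longer transcripts have more fragments at that level. Of the 70 differences (10 members in 7 comparisons), 69 kept direction and call with a pseudocount of 0.1, 67 without the filter, 66 in fits of the compared groups alone, 64 after quantile normalization, and 61 after scaling each library to a sum of 1000000. Scaling moved the median difference from NSCs over all tested genes from 0.08 to −0.48 for EPSCs, from 0.03 to −0.47 for ESCs, and from 0.06 to −0.51 for hybrid cells (log2). With it, Lifr and Il6st were called lower in EPSCs than in NSCs (−0.76, adjusted p = 0.000216, and −0.61, adjusted p = 0.000171). Where no cause is named, the cause was not tested.

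In the fit of hybrid cells and EPSCs alone, 2 members were called (Osmr and Socs3) and 2811 of all genes, against 5881 in the fit of all groups. Other fits of 2 groups alone called 8050 genes in EPSCs against ESCs (8079 with all groups) and 8199 in hybrid cells against ESCs (8667). In ESCs against NSCs, it was 11800 (11212). The cause of this difference between comparisons was not tested. With thresholds of 2, which the study names in its results section, 1 member (Osmr) passed between hybrid cells and EPSCs. With scaling and the thresholds of 3, 3 passed between hybrid cells and NSCs (Jak2, Pim1, and Gbx2). With the average taken over both groups, a reading added after seeing the data, 4 members passed in hybrid cells and in EPSCs against NSCs and 1 (Socs3) between hybrid cells and ESCs. Direction turned after scaling for Pim1 in EPSCs against ESCs (−0.0219), Osmr in hybrid cells against NSCs (−0.1279), and Il6st in hybrid cells against ESCs (−0.0577). After quantile normalization it turned for the same differences of Pim1 (−0.0381) and Il6st (−0.0129) and for Lifr in EPSCs against NSCs (0.0128). The position of hybrid cells between their parents was 0.9033 for Jak2 with a pseudocount of 0.1 and 0.9297 with scaling, and 0.7847 for Socs3 with scaling.

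When each library was left out in turn, the members called ranged from 3 to 5 in EPSCs against ESCs (3, namely Osmr, Stat3, and Socs3, without ESC replicate 2 or EPSC replicate 1) and from 3 to 8 in hybrid cells against EPSCs (3 without EPSC replicate 1 and 8 without EPSC replicate 2). By the rule of the study, they ranged from 0 to 1 between hybrid cells and EPSCs (1, Osmr, without hybrid replicate 2), from 3 to 5 between EPSCs and NSCs (3 without EPSC replicate 1), and from 1 to 2 between hybrid cells and ESCs (1 without hybrid replicate 1). Differences that turned ranged, for EPSCs against ESCs, from −0.1838 to 0.0536 for Jak1, from −0.2146 to 0.0894 for Jak2, and from −0.1302 to 0.2085 for Pim1. They ranged from −0.0087 to 0.3917 for Lif in hybrid cells against EPSCs, from −0.1027 to 0.0906 for Il6st in EPSCs against NSCs, and, in hybrid cells against ESCs, from −0.1009 to 0.1194 for Il6st and from −0.1024 to 0.5307 for Gbx2. Positions ranged from 0.8814 to 0.9663 for Jak2, from 0.8222 to 0.8653 for Socs3, and from 1.034 to 1.149 for Pim1.

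Libraries of equal number share only a number. Their deviations correlated with r from −0.11 (ESCs and NSCs) to 0.28 (EPSCs and hybrid cells), and the replicate block left all 70 differences with their direction and call. Members called stayed at 5 in EPSCs against ESCs and 10 in ESCs against NSCs, where a block with crossed numbers, added after seeing the data, also gave 10. Of the 50 calls of other named pathway genes, 44 were called under every alternative, and 6 were lost under at least 1, among them Il11ra1 in hybrid cells against NSCs and, in hybrid cells against EPSCs, Myc, Smad7, Socs4, and Stat4.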
